A study of Arabidopsis thaliana with 6 samples.

Results

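The 9 genes described here encode phosphatases that remove phosphate from MAP kinases in Arabidopsis. They were listed by locus identifier, by their known function, and all 9 were among the 32678 genes of the count table. They comprise 4 PP2C-type enzymes (AP2C1, AP2C2, AP2C3 and AP2C4) and 5 tyrosine or dual-specificity enzymes (MKP1, MKP2, PTP1, DsPTP1 and IBR5). These members, and the gene lists set beside them below, were chosen with earlier results of these data known. The study activated an intracellular immune receptor without a pathogen and measured polyadenylated RNA in leaves. The 35S:RPS4 group (3 libraries, genotype given as Col-0 35S:RPS4-HS) expresses the TIR-type receptor RPS4 from the 35S promoter, which is active in most plant tissues. The Col-0 group (3 libraries) is the wild type. Plants of both groups grew for 3.5 weeks at 28 °C, where RPS4 signalling is restrained, and were harvested 2 h after transfer to 19 °C, so both groups share the change in temperature. With no library from before the transfer analysed here, each difference is between genotypes after the same transfer.

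MAP kinase cascades pass signals from receptors through a MAP kinase kinase kinase and a MAP kinase kinase to a MAP kinase, which becomes active when a threonine and a tyrosine of its activation loop are both phosphorylated. PP2C-type enzymes remove phosphate from serine and threonine, tyrosine phosphatases from tyrosine, and dual-specificity enzymes from both, and loss of either phosphate switches the kinase off. In Arabidopsis, MPK3, MPK4 and MPK6 are activated within minutes of pathogen sensing, and AP2C1, MKP1 and PTP1 are known to limit them.

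The RPS4 transcript averaged 757 ± 151 CPM (counts scaled to a common library size with TMM factors) in 35S:RPS4 and 27.1 ± 5.11 CPM in Col-0 (SD, n = 3 each), higher in 35S:RPS4 as its label says. Gene counts summed to between 29835605 and 31007551 per 35S:RPS4 library and between 28659022 and 30237250 per Col-0 library. Leaf markers (RBCS1A, RCA, CAB1 and CAB3) summed to 48200 to 56100 CPM in 35S:RPS4 and 48200 to 51900 CPM in Col-0, while 5 root, flower and seed markers together stayed at or below 1.70 CPM in 35S:RPS4 and 1.71 CPM in Col-0. In bulk leaf RNA, fewer cells of a type and less RNA per cell cannot be told apart. The labels do not say that replicates were separate plants, and p-values thus cover only the variation among these 6 libraries.

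Of the 8 phosphatase genes that passed the filter on low counts, AP2C1 and AP2C2 were higher in 35S:RPS4 and none was lower, with a call set at an FDR below 0.01 and a change above 1 on the log2 scale in edgeR's quasi-likelihood test. Across all 18382 genes tested, 6.46% were called higher and 1.37% lower. The median log2 fold change (log2FC, 35S:RPS4 over Col-0) was 0.07 over the 8 members and 0.01 over all genes tested. The called differences lay in 2 of the 3 tested AP2C genes, as AP2C4 did not pass the filter. The 5 tyrosine and dual-specificity genes all lay between -0.44 and 0.26.

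The promoters of AP2C1, AP2C2 and AP2C3 are printed to show side by side the DNA in front of 2 genes that were called and 1 that was not. Each is the 250 bases before the annotated gene start in RefSeq's TAIR10.1 genome, in the gene's own direction. Capitals mark TTGAC, the core of the W-box bound by WRKY factors, on either strand (GTCAA when on the other strand), and CACGTG, the G-box.
AP2C1, chr2:12814021-12814270, plus strand: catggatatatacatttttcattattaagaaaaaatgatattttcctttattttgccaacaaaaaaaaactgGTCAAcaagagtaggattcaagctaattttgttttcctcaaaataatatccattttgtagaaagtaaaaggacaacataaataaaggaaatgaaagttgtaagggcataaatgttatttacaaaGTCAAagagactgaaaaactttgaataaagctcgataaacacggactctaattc
AP2C2, chr1:2199774-2200023, minus strand: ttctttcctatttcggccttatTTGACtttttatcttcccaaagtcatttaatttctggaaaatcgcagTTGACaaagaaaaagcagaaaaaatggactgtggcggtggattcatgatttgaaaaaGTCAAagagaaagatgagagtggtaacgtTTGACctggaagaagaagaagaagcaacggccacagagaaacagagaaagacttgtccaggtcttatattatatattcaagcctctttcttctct
AP2C3, chr2:16782116-16782365, plus strand: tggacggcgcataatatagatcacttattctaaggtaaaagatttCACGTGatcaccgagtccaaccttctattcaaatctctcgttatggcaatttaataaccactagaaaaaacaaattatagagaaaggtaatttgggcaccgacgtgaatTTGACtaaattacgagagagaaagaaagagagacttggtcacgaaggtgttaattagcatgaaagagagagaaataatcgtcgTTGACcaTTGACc
TTGAC occurred 2 times before AP2C1, 4 times before AP2C2 and 3 times before AP2C3, so both called genes and the uncalled AP2C3 held it at least 2 times. The AP2C2 window runs into AT1G07170, which lies 223 bases away on the opposite strand. The AP2C2 match at bases -228 to -224 is inside that gene. At least 1 TTGAC was present in 45% of 26707 promoters of this length, and at least 2 in 14.1%. Among the tyrosine and dual-specificity genes, MKP1 and MKP2 held it once and PTP1, DsPTP1 and IBR5 did not. CGCG and CGTG are both forms of the core bound by CAMTA factors. Among the 8 members searched, CGCG was found only before MKP1 (10.1% of all promoters), and CGTG before AP2C1, AP2C3, MKP1 and MKP2 (45.7%). The CGTG before MKP2 lies inside a tRNA gene, AT3G06105, which is 18 bases from MKP2. CACGTG, which contains CGTG, was found only before AP2C3 (6.58%). These matches are letters in a window and were not tested as binding sites.

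AP2C1 (AT2G30020, chromosome 2, 12814271 to 12816360, plus strand, 2 exons) is a PP2C that dephosphorylates stress-activated MAP kinases. Its level was 31.7, 72.7 and 67.5 CPM in 35S:RPS4 replicates 1, 2 and 3, against 3.20, 3.14 and 3.49 CPM in Col-0 replicates 1, 2 and 3. The groups did not overlap, and the lowest 35S:RPS4 library stood far above the highest Col-0 library. The means were 57.3 ± 22.3 and 3.27 ± 0.188 CPM (SD, n = 3 each), a 17.5-fold difference, with a log2FC of 4.13 (SE 0.34, FDR 0.000304).

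AP2C2 (AT1G07160, chromosome 1, 2197854 to 2199773, minus strand, 3 exons) is the closest relative of AP2C1 among these members, with 75.6% of aligned residues identical in the proteins translated from the annotation, against 43.9 to 53.8% for all other AP2C pairs. Its counts were 683, 1289 and 1381 in 35S:RPS4 replicates 1, 2 and 3, against 0, 12 and 6 in Col-0 replicates 1, 2 and 3. That corresponds to 22.9, 43.7 and 50.5 CPM in 35S:RPS4 and 0, 0.405 and 0.185 CPM in Col-0, where the count of 0 allows up to 0.0951 CPM (3 counts, counting error only). The transcript was close to absent from Col-0 leaves and readily counted in every 35S:RPS4 library. The log2FC of 7.63 (SE 0.60, 95% interval 6.21 to 9.05, FDR 0.000235) was the largest of 53 tested genes annotated as PP2Cs, with AP2C1 next and AT4G33920 after it at 2.25. Its size depends on the few Col-0 counts: leaving out Col-0 replicate 1 gave 7.04, and leaving out Col-0 replicate 2 gave 8.64.

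35S:RPS4 replicate 1 had the lowest level of both genes among the 35S:RPS4 libraries. AP2C1 there was 0.452 times the mean of 35S:RPS4 replicates 2 and 3, and AP2C2 was 0.486 times that mean. The same ratio was 0.726 for RPS4 itself, 0.649 for MPK3, and a median of 0.557 over the 379 genes that had a log2FC above 3 and at least 10 CPM in 35S:RPS4. Those 379 genes include AP2C1 and AP2C2 and were picked on these same libraries. Without that library the log2FC was 4.41 for AP2C1 and 7.89 for AP2C2. Within Col-0, replicate 1 was also the lowest library for AP2C2, RPS4 (21.2 against 29.8 and 30.2 CPM) and MPK3 (48.1 against 74.4 and 70.5 CPM). AP2C1 was lowest in Col-0 replicate 2. What sets the replicate 1 libraries apart was not tested.

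AP2C3 (AT2G40180, also named PP2C5, chromosome 2, 16782366 to 16784147, plus strand) is a PP2C that acts on MAP kinases and has been linked to stomata. It was low throughout, with 0.738, 0.509 and 0.512 CPM in 35S:RPS4 replicates 1, 2 and 3, against 0.665, 0.405 and 0.587 CPM in Col-0 replicates 1, 2 and 3. The groups overlapped, and the log2FC was 0.08 (SE 0.33, 95% interval -0.68 to 0.85, FDR 0.912), so a change the size of that in AP2C1 lies outside its interval. AP2C4 (AT1G67820, chromosome 1, 25429750 to 25431600, plus strand) had 6, 14 and 6 counts in 35S:RPS4 and 8, 8 and 9 counts in Col-0, below the filter on low counts. Its counts summed to 26 in 35S:RPS4 and 25 in Col-0, and relative to the scaled library sizes the ratio was 1.12, with an exact 95% interval of 0.624 to 2.03 that covers counting error only. In the fit without that filter its log2FC was 0.16 (SE 0.51, FDR 0.894). The gene overlaps FXG1 (AT1G67830) on the opposite strand, and in unstranded libraries reads there cannot be assigned by strand.

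Guard cell markers (FAMA, MYB60, KAT1 and MUTE) summed to 47.6 to 48.4 CPM in 35S:RPS4 and 37.9 to 38.5 CPM in Col-0, with none of the 3 tested called, and their part in the AP2C values was not tested.

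**Figure D1:**
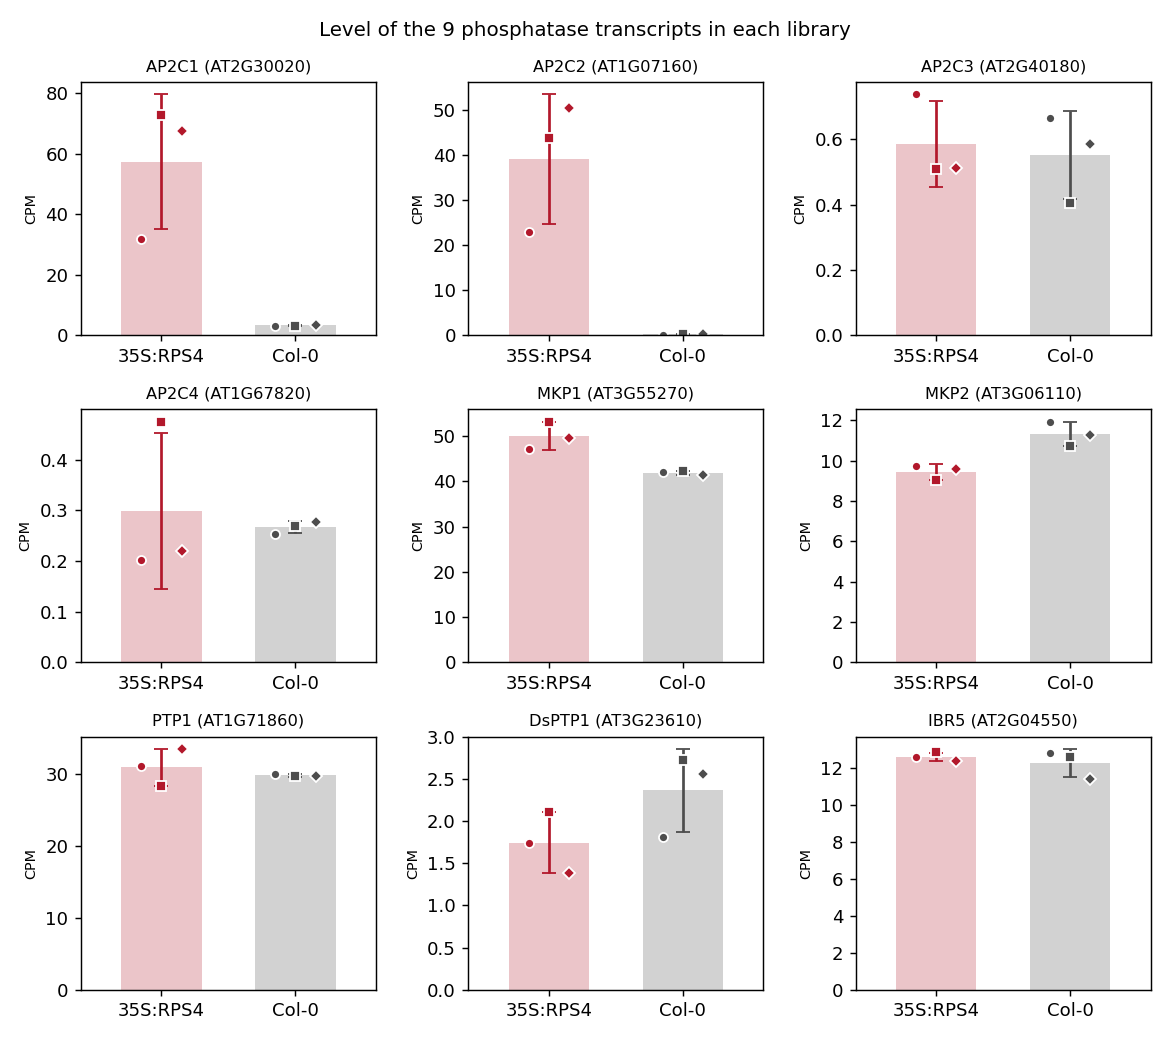
Level of each member in CPM (linear axes from 0, a scale per panel), with 35S:RPS4 left of Col-0; bars are means, error bars the SD of 3 libraries, and circles, squares and diamonds replicates 1, 2 and 3. AP2C1 (57.3 against 3.27 CPM) and AP2C2 (39.0 against 0.197 CPM) stand clear of Col-0, and no other panel holds a called difference.

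MKP1 (AT3G55270, chromosome 3, 20496081 to 20500019, plus strand) is a MAP kinase phosphatase that restrains MPK3 and MPK6 in immunity and genotoxic stress. It was at 47.2, 53.2 and 49.5 CPM in 35S:RPS4 replicates 1, 2 and 3, against 42.0, 42.2 and 41.3 CPM in Col-0 replicates 1, 2 and 3. The groups did not overlap, with 35S:RPS4 higher, but the log2FC of 0.26 (SE 0.07, 95% interval 0.09 to 0.43, FDR 0.0517) was not called. It was 0.08 under upper-quartile scaling, where the median over all genes shifted to -0.17. MKP2 (AT3G06110, chromosome 3, 1843413 to 1845062, plus strand), a dual-specificity phosphatase linked to MPK3 and MPK6, was at 9.76, 9.02 and 9.58 CPM in 35S:RPS4 and 11.9, 10.8 and 11.3 CPM in Col-0. Here too the groups did not overlap, with 35S:RPS4 lower, and the log2FC of -0.26 (SE 0.09, 95% interval -0.48 to -0.05, FDR 0.104) was not called. A change as large as 1 on the log2 scale lies outside both intervals.

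PTP1 (AT1G71860, chromosome 1, 27026677 to 27029092, plus strand), a tyrosine-specific phosphatase that acts with MKP1, averaged 30.9 ± 2.56 CPM in 35S:RPS4 and 29.8 ± 0.203 CPM in Col-0 (SD, n = 3 each). IBR5 (AT2G04550, chromosome 2, 1588193 to 1590166, plus strand), a dual-specificity phosphatase known from auxin and abscisic acid responses, averaged 12.6 ± 0.233 CPM in 35S:RPS4 and 12.3 ± 0.774 CPM in Col-0 (SD, n = 3 each). The libraries of the groups overlapped for both genes. The log2FC was 0.05 for PTP1 (95% interval -0.14 to 0.25, FDR 0.742) and 0.04 for IBR5 (95% interval -0.17 to 0.24, FDR 0.836). DsPTP1 (AT3G23610, chromosome 3, 8477800 to 8479877, plus strand), a dual-specificity phosphatase regulated by calmodulin, was at 1.74, 2.10 and 1.39 CPM in 35S:RPS4 replicates 1, 2 and 3, against 1.81, 2.73 and 2.56 CPM in Col-0 replicates 1, 2 and 3. The groups overlapped, and its interval was wider (log2FC -0.44, 95% interval -1.003 to 0.13, FDR 0.305), reaching the fold limit of the call. These intervals are not adjusted for the number of genes.

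**Figure D2:**
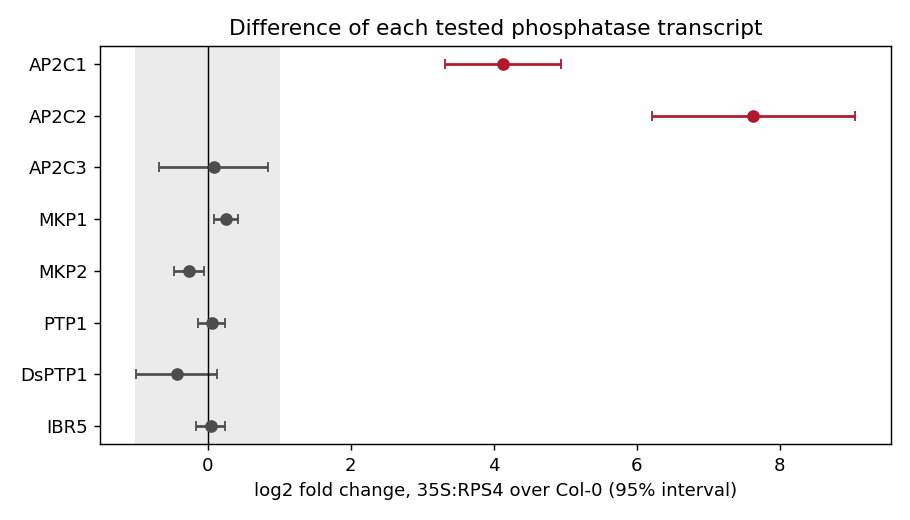
The log2FC of the 8 tested members, 35S:RPS4 over Col-0, with symmetric 95% intervals computed from the edgeR test statistic. Red marks a called gene and the grey band runs from -1 to 1. AP2C1 at 4.13 and AP2C2 at 7.63 lie beyond the band, and the other 6 points lie within it.

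The protein patterns that separate the 2 classes were counted in the translated annotation. The DGHG run typical of PP2C enzymes occurred once in each AP2C, and the HCnnGnnR active-site run of tyrosine and dual-specificity phosphatases once in MKP2, PTP1, DsPTP1 and IBR5. A basic run followed by spaced leucine or isoleucine, the kinase interaction pattern by which MAP kinases are docked, was found in all 4 AP2C proteins and in none of MKP2, PTP1, DsPTP1 and IBR5. It was thus shared by the called AP2C1 and AP2C2, by the uncalled AP2C3, and by AP2C4, which fell below the filter on low counts. The pattern does not separate AP2C1 and AP2C2 from AP2C3 and AP2C4.

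Per kilobase of exon, which allows levels to be compared between genes, the order of the members differed between the groups. In 35S:RPS4 the highest were AP2C1 (31.6 CPM per kb), AP2C2 (25.4), PTP1 (20.0) and MKP1 (16.0), and the order among them was not tested. In Col-0 the highest were PTP1 (19.3), MKP1 (13.4), MKP2 (10.4) and IBR5 (8.49), while AP2C1 was at 1.81 and AP2C2 at 0.128 CPM per kb. The 4 AP2C genes together summed to 57.6 ± 21.3 CPM per kb in 35S:RPS4 and 2.48 ± 0.126 in Col-0, and the 5 tyrosine and dual-specificity genes to 54.4 ± 1.06 in 35S:RPS4 and 53.0 ± 0.796 in Col-0 (SD, n = 3 each). The AP2C share of the members' total was 38.0, 56.3 and 55.9% in 35S:RPS4 replicates 1, 2 and 3, against 4.24, 4.41 and 4.78% in Col-0 replicates 1, 2 and 3. AP2C2 reached 0.851, 0.708 and 0.882 times the level of AP2C1 per kb in the 35S:RPS4 libraries, against 0, 0.152 and 0.0626 times in the Col-0 libraries.

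**Figure D3:**
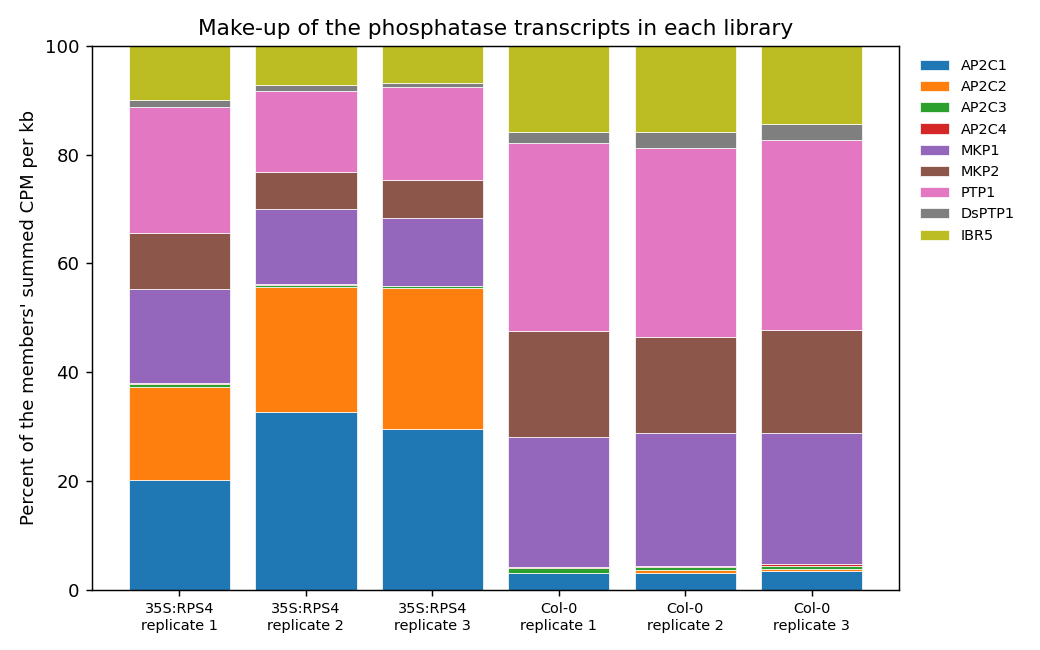
Share of each member in the summed CPM per kb of the 9 genes, 1 bar per library, 35S:RPS4 at the left. AP2C1 and AP2C2 fill 37.3 to 55.7% of the 35S:RPS4 bars and 3.14 to 3.73% of the Col-0 bars.

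Outside the AP2C genes, 5 of 50 tested genes annotated as PP2Cs (10%) were higher in 35S:RPS4 and 1 was lower. Of all genes tested, 6.46% were called higher and 1.37% lower. The next largest after AP2C1 was AT4G33920 (139 against 29.2 CPM, log2FC 2.25, FDR 0.000922), named after its value was seen. In clade A, whose PP2Cs hold abscisic acid signalling in check, ABI1 was higher in 35S:RPS4 (log2FC 1.35, FDR 6.975e-05). PP2CA was lower in 35S:RPS4 by 1.25 on the log2 scale (FDR 0.000483), and 4 of 6 tested clade A genes were not called. Of 6 other tested genes annotated as tyrosine or dual-specificity phosphatases, PFA-DSP3 (AT3G02800) was the only one called, at 60.0 CPM in 35S:RPS4 and 1.16 CPM in Col-0 (log2FC 5.68, FDR 9.114e-05), also named after its value was seen. PHS1, a further MAP kinase phosphatase known for its action on microtubules, was at 11.5 ± 1.10 CPM in 35S:RPS4 and 11.1 ± 1.72 CPM in Col-0 (SD, n = 3 each) and was not called.

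Genes of the MAP kinase cascade itself were read from the same fit. Among 20 MAP kinases, 3 were called higher in 35S:RPS4 (15%, against 6.46% of all genes tested) and none lower (median log2FC 0.08). MPK3 was at 885, 1271 and 1457 CPM in 35S:RPS4 replicates 1, 2 and 3, against 48.1, 74.4 and 70.5 CPM in Col-0 replicates 1, 2 and 3 (log2FC 4.23, FDR 9.4e-05). MPK17 had a log2FC of 2.43, and MPK11, close in sequence to MPK4, of 4.21 (FDR 0.00309), but MPK11 lost its call without 35S:RPS4 replicate 2 (4.21, FDR 0.0142), Col-0 replicate 2 (4.50, FDR 0.0142) or Col-0 replicate 3 (4.49, FDR 0.0144), and with no filter on low counts (4.21, FDR 0.0256). MPK6 (33.3 ± 3.27 CPM in 35S:RPS4, 31.1 ± 0.254 CPM in Col-0, SD, n = 3 each) and MPK4 (66.6 ± 3.51 and 58.2 ± 5.84 CPM) were not called, with log2FC values of 0.10 and 0.20.

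Upstream, 4 of 8 tested MAP kinase kinases were called higher in 35S:RPS4 (median log2FC 1.15). Among them were MKK4 (4.08) and MKK5 (1.83), which activate MPK3 and MPK6, and MKK9 (3.10). MKK6 (1.76, FDR 0.00700) lost its call without 35S:RPS4 replicate 2 or 3 or any 1 of the Col-0 libraries (1.45 to 1.95), and under limma voom (1.70, FDR 0.0150). Of 12 tested MEKK-type kinases 3 were called higher in 35S:RPS4 (median log2FC 0.31): MEKK1 (1.71), MAPKKK5 (1.25) and MAPKKK13 (1.20). Among genes for known MAP kinase substrates, 5 of 11 were called higher in 35S:RPS4 (median log2FC 0.55). They included the transcription factors WRKY33 (5.69), ERF6 (6.61) and ERF104 (6.17) and the ethylene synthesis enzyme ACS6 (4.56). The share of all genes tested that was called higher was 6.46%.

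**Figure D4:**
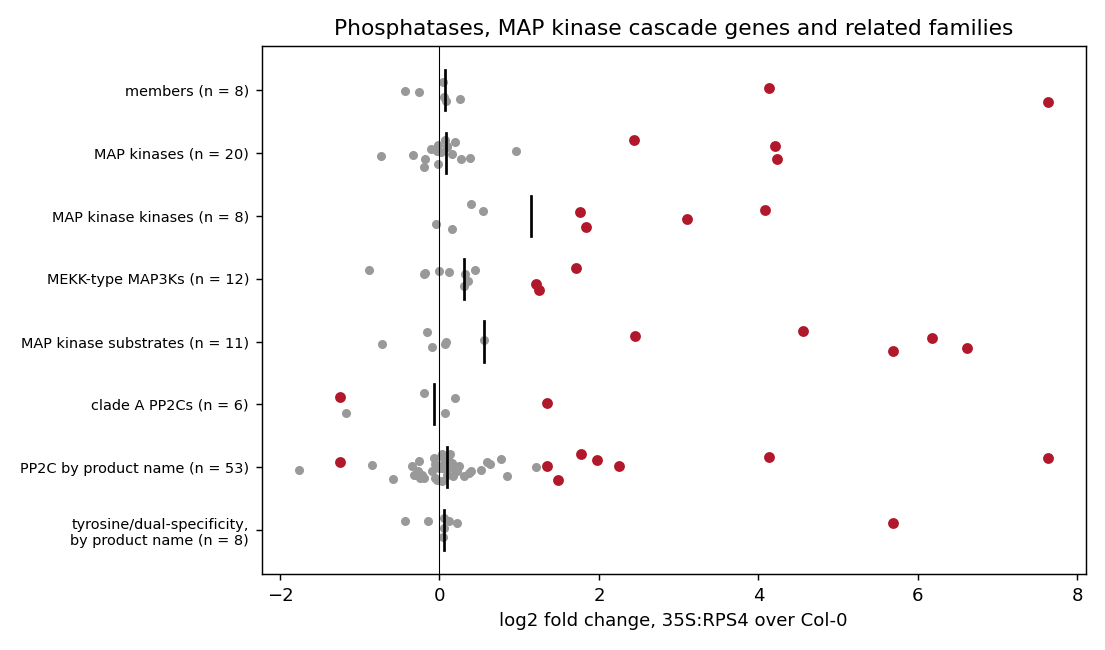
The log2FC, 35S:RPS4 over Col-0, of each tested gene in the members and in 7 lists or families (n beside each name; points are spread vertically for sight only, red marks called genes, black bars medians). AP2C1 and AP2C2 are the 2 rightmost points of the PP2C family, and PFA-DSP3 is the only red point among genes annotated as tyrosine or dual-specificity phosphatases.

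Receptor genes tied to these enzymes by genetics were read beside them. SNC1, a TIR-type receptor gene on which the growth defects of mkp1 mutants depend, averaged 563 ± 85.6 CPM in 35S:RPS4 and 255 ± 35.0 CPM in Col-0 (SD, n = 3 each; log2FC 1.14, FDR 0.00142). Its call was lost without Col-0 replicate 3 (1.15, FDR 0.0110) and under upper-quartile (0.96) or plain library-size scaling (0.97). CHS3, a receptor gene linked to IBR5, and SUMM2, which monitors the MPK4 pathway, had log2FC values of 0.26 and -0.65 and were not called.

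Both raised members lie on their chromosomes near a MEKK-type kinase gene, and these neighbours differed. MAPKKK13 lies 1857 bases from AP2C2 on the same strand and was at 3.66, 4.51 and 3.98 CPM in 35S:RPS4, against 2.09, 1.82 and 1.36 CPM in Col-0 (FDR 0.00528). Its call was lost without 35S:RPS4 replicate 2 (1.12, FDR 0.0274) or 3 (1.22, FDR 0.0219), or without Col-0 replicate 2 (1.24, FDR 0.0211) or 3 (1.05, FDR 0.0198). MAPKKK14 lies 5208 bases from AP2C1 on the same strand and had a log2FC of -0.20 (FDR 0.744). In both cases the gene on the other side was nearer and was not called. These were AT1G07170, 223 bases from AP2C2 (log2FC 0.08), and TBL45, 4884 bases from AP2C1 (log2FC -0.11). SUFE2, 2288 bases from AP2C4, had 15.7, 32.7 and 41.3 CPM in 35S:RPS4 and 0.507, 0.978 and 0.772 CPM in Col-0 (log2FC 5.31, FDR 0.000357). Of the 18 nearest genes on either side of the 9 members, 2 were called, 13 were not and 3 fell below the filter on low counts. Both called neighbours were higher in 35S:RPS4, a call made for 6.46% of all genes tested.

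Profiles over the 6 libraries were compared by Euclidean distance of centred log2 CPM, among 13394 tested genes with a mean of at least 5 CPM. The genes closest to AP2C1 were AT1G63720 (distance 0.256), AT1G32928 (0.370) and AT1G23710 (0.382). Those closest to AP2C2 were CCR2 (0.908), AT3G10930 (1.14) and AT2G22880 (1.57). The distance includes the difference between the groups, so genes of similar log2FC come out near. In the order named, log2FC was 4.23, 3.88 and 4.22 for the genes near AP2C1, and 7.86, 7.23 and 8.54 for those near AP2C2. The Col-0 part of the AP2C2 profile rests on counts of 0, 12 and 6.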

How the data were processed

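Polyadenylated leaf RNA was sequenced from unstranded TruSeq v2 libraries. The deposited table gives raw read counts for each gene, not normalized. The submitters' processing notes name FastQC 0.11.2, TopHat2 2.0.10, HTSeq and the TAIR10 genome, and the strand setting of counting is not given in the sources used here. Rows that name no gene held 6.45 to 8.30% of each library and were set aside.

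Counts were tested with edgeR 4.0.16 (R 4.3.3; TMM factors, default filter on low counts, robust quasi-likelihood fit, genotype as the sole term), two-sided, with Benjamini-Hochberg adjustment over 18382 genes. CPM used TMM-scaled library sizes. DESeq2 1.42.0, limma 3.58.1 (voom), other scalings, no filter, a replicate block and each library left out were tried. The scripts were tested on simulated data. Libraries of a group differed by more than sampling noise.

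Deviations of same-numbered libraries correlated over genes (r 0.560, 0.216 and 0.415 for numbers 1, 2 and 3), so the numbers may pair them. Those of different numbers ran from -0.494 to 0.283, and 35S:RPS4 replicate 2 was nearer to Col-0 replicate 3 than to Col-0 replicate 2. The main fit did not use such a pairing, and its SE, intervals and FDR values treat the libraries as unpaired. The fit with the block was an alternative.

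Members and lists were chosen with earlier results of these data known. The text names every member, RPS4, up to 4 called genes by smallest FDR in each list of kinases, substrates and clade A PP2Cs and any called against them (this did not cover families found by product name), linked receptor genes and PHS1, the nearest genes beside members (as counts where not singled out), and the 3 nearest profiles of each called member. MPK4 and MPK6 were added as known targets. 1 list entry, given as TZF9, was left out because the reference pairs its identifier with another gene. Promoters came from RefSeq's TAIR10.1, and that of AP2C4 is not reported here. The annotated coding sequence of MKP1 was not read through, and its protein was not compared.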

Additional observations from a re-analysis of the deposited data

How the results depend on the processing

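Each of the 8 tested members kept its side of the call and the count of raised members stayed at 2 under all 14 alternative fits. AP2C1 ran between 3.92 and 4.41 on the log2 scale and AP2C2 between 7.04 and 8.64, where limma voom gave 8.40. MKP1 ran between 0.08 and 0.29 and MKP2 between -0.44 and -0.23. The signs of the small differences of AP2C3, PTP1 and IBR5 varied with the setting. The fit with the replicate block called 1329 genes raised and 330 lowered, gave AP2C1 4.06 and AP2C2 7.64, and changed no call of a gene named in the text.

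Counts over all genes moved more. With an FDR below 0.05 and no fold limit, 1934 genes were raised and 1150 lowered, and 2 members were raised and 0 lowered. Lowered genes numbered 391 with upper-quartile scaling and 377 with plain library sizes, which moved the median log2FC of all genes to -0.17 and -0.16, and 404 without both replicate 1 libraries. Leaving out 1 library at a time gave 841 to 1374 raised and 99 to 337 lowered genes, against 1188 and 251 with all libraries. AP2C4 was tested only without the filter on low counts, where its 95% interval ran from -0.98 to 1.30 on the log2 scale.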
